A study of Mus musculus with 13 samples.

Results

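The interleukin 1 family was followed through ChIP-seq of 4T1 cells by 9 genes, of 18562 genes listed in any of the 6 peak lists. They were matched to the lists by gene symbol: the ligands Il1a, Il1b, Il33 and Il18, the antagonist Il1rn, the receptors Il1r1, Il1r2 and Il1rl1, and the shared receptor chain Il1rap. Of the 9 genes, 8 had a peak in at least 1 list and Il1b had none. 4T1 is a line from a spontaneous mammary tumor of BALB/cJ mice. The study compared 4T1 cells that carried a non-targeting guide RNA (sg-Ctrl) with CRISPR/Cas9 Nup210 knockout (KO) cells, to ask by ChIP-seq whether heterochromatin increases when this nuclear pore protein is lost. H3K4me3, a histone mark of active gene starts, and H3K27me3, a mark of repressed chromatin, were measured in sg-Ctrl and KO cells, while NUP210 and a set of nuclear pore proteins recognised by 1 antibody (NPC) were measured in sg-Ctrl cells. The KO cells were 1 clone, N13, so its loss of NUP210 and any other property of that clone cannot be told apart. Each of the 6 conditions had 1 library, so intervals are 95% intervals of counting error and no test over replicates was possible. A lower value can stand for fewer cells with the mark or for less of it per cell, which bulk chromatin cannot tell apart.

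IL-1 alpha and IL-1 beta are inflammatory cytokines that act through the same receptor, IL1R1, which needs the accessory chain IL1RAP to signal to NF-kB and MAP kinases. IL1RN competes for that receptor without signalling, and IL1R2 is a decoy that binds ligand but does not signal. IL-33 and IL-18 are related ligands, IL1RL1 (ST2) is the receptor for IL-33, and tumor cells that make IL-1 can induce chemokines in themselves and in the cells around them.

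Reads in H3K4me3 peaks numbered 26236314 for sg-Ctrl and 24873356 for KO, those in H3K27me3 peaks 7719297 and 26811061, and those in NUP210 and NPC peaks 7194586 and 5866175. Reads were divided by the size of each library relative to its IgG control, and levels are given as these scaled reads per kb of peak. A single rabbit IgG library was the control for both histone marks in sg-Ctrl and KO. The IgG reads of a gene thus differ between conditions only through the peak edges, and are no separate background of KO cells. Over the 12197 genes with an H3K4me3 peak in both lists, KO stood at a median log2 ratio of -0.50 to sg-Ctrl (quartiles -0.76 and -0.23), and each gene is therefore also given relative to this median. Nup210 itself had 885 and 913 reads at its start, a log2 ratio of -0.41, but the guide cuts farther into the gene, so this peak is no check of the knockout. The smallest listed H3K4me3 peaks had 24 reads in sg-Ctrl, and 29 in KO, so a gene with no listed peak may still carry the mark below that level. All 9 epithelial marker genes examined had H3K4me3 in both lists. Of 9 leukocyte markers 2 did, of 6 fibroblast markers 2 did, and of 4 endothelial markers 0 did.

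H3K4me3 was listed for 5 of the 9 genes (55.6%) in sg-Ctrl and for 5 in KO, against 48.9% of protein-coding genes in each list. They were the same genes: Il1a, Il1r1, Il1r2, Il1rap and Il1rl1. H3K27me3 was listed for 3 genes in sg-Ctrl (Il1rn, Il18 and Il33), where 18.2% of protein-coding genes were listed, and for 2 in KO (Il1rn and Il18), where 18.9% were. No family gene was listed for both marks, but the RefSeq start of Il18 lay under peaks of both marks that the lists give to neighbouring genes. Among all genes with H3K4me3, 5.81% in sg-Ctrl and 4.83% in KO also had H3K27me3 on the gene body. By the lists' own gene labels the family thus had 5 genes with the active mark, 3 with the repressive mark and Il1b with neither in sg-Ctrl cells.

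The starts of the genes differed in sequence. RefSeq (GRCm38.p6, the build whose gene positions the lists follow) gave 14 promoter windows of 300 bases for the 9 genes, each from 250 bases before the start to 50 after it. The 6 windows under an H3K4me3 peak of sg-Ctrl held between 1 and 33 CpG (median 9.5), and the 8 windows outside one held between 1 and 6 (median 3.5), beside a median of 7 over all 32851 windows. The lowest of the marked windows, with 1 CpG, was that of Il18, which lay under a peak listed for the neighbouring gene Bco2. The windows of both IL-1 ligands are shown first, because one carried H3K4me3 and the other did not. That of Il1a lies at chr2:129309923-129310222 and that of Il1b at chr2:129371090-129371389, both on the minus strand, and capitals mark TATAAA and the AP-1 motif TGANTCA on either strand.
Il1a: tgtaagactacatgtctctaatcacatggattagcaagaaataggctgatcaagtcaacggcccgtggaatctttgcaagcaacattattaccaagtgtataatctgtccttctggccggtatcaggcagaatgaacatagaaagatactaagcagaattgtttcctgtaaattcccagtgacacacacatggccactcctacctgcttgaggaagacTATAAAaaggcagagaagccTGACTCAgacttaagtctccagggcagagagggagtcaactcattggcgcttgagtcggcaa
Il1b: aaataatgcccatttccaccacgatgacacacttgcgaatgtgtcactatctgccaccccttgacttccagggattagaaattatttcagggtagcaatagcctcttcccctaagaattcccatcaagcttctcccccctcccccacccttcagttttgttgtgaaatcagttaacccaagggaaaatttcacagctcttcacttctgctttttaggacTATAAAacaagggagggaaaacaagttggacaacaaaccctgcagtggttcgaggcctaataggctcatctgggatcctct
TATAAA began 32 bases before the start of Il1a and 31 bases before that of Il1b, and 13.6% of all windows hold it. Il1a also had the AP-1 motif, 12 bases before its start, which 7.81% of all windows hold and which was not found in these letters of Il1b. The 2 windows differed little in CpG, with 5 in Il1a and 3 in Il1b.

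The windows of the signalling receptor and its accessory chain are shown next, since Il1r1 had H3K4me3 at both of its starts and Il1rap had the highest level of the family. Capitals mark CpG. The upstream start of Il1r1 lies in chr1:40224830-40225129, its downstream start in chr1:40266336-40266635 and the start of Il1rap in chr16:26581455-26581754, all on the plus strand.
Il1r1 upstream start: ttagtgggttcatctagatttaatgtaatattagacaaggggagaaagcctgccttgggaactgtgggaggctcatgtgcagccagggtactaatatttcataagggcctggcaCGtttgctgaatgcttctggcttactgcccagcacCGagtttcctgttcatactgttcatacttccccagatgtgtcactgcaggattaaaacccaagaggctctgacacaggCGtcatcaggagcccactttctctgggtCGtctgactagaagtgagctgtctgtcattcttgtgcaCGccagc
Il1r1 downstream start: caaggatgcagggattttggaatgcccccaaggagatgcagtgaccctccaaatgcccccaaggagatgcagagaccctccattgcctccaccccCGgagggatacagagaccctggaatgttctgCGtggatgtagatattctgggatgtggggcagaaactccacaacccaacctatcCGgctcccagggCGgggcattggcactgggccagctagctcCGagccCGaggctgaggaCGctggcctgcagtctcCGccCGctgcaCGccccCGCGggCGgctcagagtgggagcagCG
Il1rap: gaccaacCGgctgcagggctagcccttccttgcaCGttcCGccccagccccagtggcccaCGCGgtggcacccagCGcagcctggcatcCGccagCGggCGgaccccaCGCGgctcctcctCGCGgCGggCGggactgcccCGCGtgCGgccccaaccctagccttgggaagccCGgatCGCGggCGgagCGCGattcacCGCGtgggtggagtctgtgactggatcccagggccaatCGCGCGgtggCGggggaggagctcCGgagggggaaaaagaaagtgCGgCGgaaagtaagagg
CpG numbered 5 in the upstream window of Il1r1, 14 in its downstream window and 33 in that of Il1rap, which was more than in 91.4% of all windows. H3K4me3 in sg-Ctrl followed the same order, with 170 scaled reads per kb at the upstream start, 286 at the downstream start and 582 at Il1rap. Il1r2 and Il1a did not follow it, since Il1r2 had 16 CpG and 80.1 scaled reads per kb while Il1a had 5 and 276. The kB consensus, bound by NF-kB and held by 8.46% of all windows, was found in 1 of the 14 windows, that of the downstream start of Il1r1, 232 bases before it.

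Among the H3K4me3 peaks listed for a gene of the family, that of Il1a, the gene of IL-1 alpha, had the largest loss. The study picked out IL-1 alpha among its genes in these cells, so this direction is not independent of that choice. Its peak at chr2:129306601-129310600 held 1171 reads (1105 to 1240) in sg-Ctrl against 53 IgG reads, while the KO peak at chr2:129308601-129310400 held 179 reads (154 to 207) against 6. Scaled by library size these were 276 and 73.8 reads per kb. The 2 intervals did not meet, from 260 to 292 in sg-Ctrl and from 63.4 to 85.4 in KO. The log2 ratio was -1.90 (-2.14 to -1.67), or -1.40 relative to the median of all genes, and 31 of the 12197 genes had a lower one. This level left Il1a above 15.3% of all genes in sg-Ctrl and above 1.85% in KO. Among the 500 genes nearest to Il1a in sg-Ctrl level, the median log2 ratio was -0.24, and 0 of the 500 had a lower ratio than Il1a.

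The Il1a peak also became shorter. In sg-Ctrl it was 4.0 kb wide and ran from -628 to 3371 bp relative to the start, and in KO it was 1.8 kb wide and ran from -428 to 1371 bp. Both peaks covered the window with the TATAAA and AP-1 letters shown above. Most of the lost width was on the gene side, and the reads per kb within the shorter KO peak were also lower. Total scaled reads of the peak, which take both into account, gave a log2 ratio of -3.05. The deposited fold over IgG did not show this loss, at 20.8 in sg-Ctrl and 22.1 in KO, since the KO peak covered a stretch with 3.33 IgG reads per kb against 13.3 in the wider sg-Ctrl peak.

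**Figure D1:**
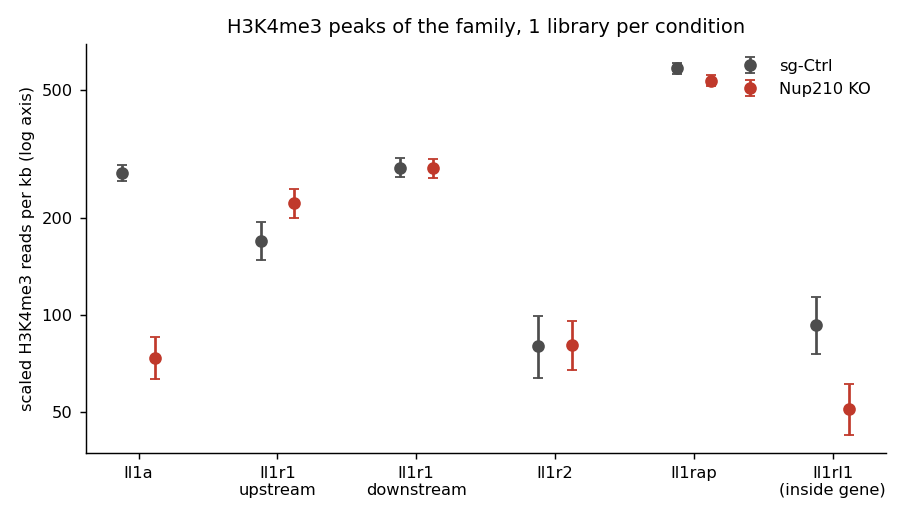
Scaled H3K4me3 reads per kb (log axis) of each peak of the family in sg-Ctrl (grey) and Nup210 KO (red), 1 library each, with exact Poisson 95% intervals. Il1a falls from 276 to 73.8, Il1r1 downstream and Il1r2 stay level, and the intervals of Il1rl1, inside the gene, lie apart at 93.3 and 51.1.

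Il1r1, Il1r2 and Il1rap stood near equal level per kb in both conditions, above the ratio of most genes. Among the 500 genes nearest to each in sg-Ctrl level, 387 were lower than Il1r1 and 462 lower than Il1rap, but 216 lower than Il1r2. Il1r1, the signalling receptor, had 2 starts with a peak each. At the downstream start (chr1:40266201-40269000 in sg-Ctrl) it had 851 reads (795 to 910) in sg-Ctrl, and KO gave 847 (791 to 906), which scaled to 286 reads per kb in both. The log2 ratio was -0.004 (-0.14 to 0.13), or 0.50 relative to the median of all genes, with 88.5% of genes lower. This near equality holds per kb: total scaled reads gave -0.35, and the deposited fold over IgG, 42.2 in sg-Ctrl and 314 in KO, gave 2.90, on 19 and 2 IgG reads. The peak moved toward the upstream side, from -385 to 2414 bp relative to the start in sg-Ctrl to -785 to 1414 bp in KO. At the upstream start (chr1:40224601-40225800) both lists gave the same edges and the same 34 IgG reads, with 216 reads (188 to 247) in sg-Ctrl and 359 (323 to 398) in KO. Over this fixed stretch the log2 ratio was 0.39 (0.14 to 0.64), and its interval did not meet that of the downstream start, though the margin was small. Of the 575 H3K4me3 peaks with the same edges in both lists, 44 had a ratio at or above that of the upstream start, and their median was -0.33.

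Il1rap, the accessory chain for several receptors of the family, kept the highest level. It held 2221 reads (2130 to 2315) in sg-Ctrl, and KO gave 2727 (2626 to 2831), or 582 and 533 scaled reads per kb. The log2 ratio was -0.13 (-0.21 to -0.05), or 0.37 relative to the median of all genes, so its sign depends on the scaling. Among the 500 genes nearest in level the median was -0.54, and 462 of them were lower than Il1rap. Its rank by level went from above 55.2% of genes in sg-Ctrl to above 80.1% in KO.

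Il1r2, the decoy receptor, was among the lowest peaks of the lists. It had 85 reads (67.9 to 105) in sg-Ctrl, and KO gave 131 (110 to 155), which scaled to 80.1 and 81.0 reads per kb. The log2 ratio was 0.02 with an interval from -0.39 to 0.43, so changes within it were not detectable at this depth. Among the 500 genes nearest in level the median was 0.12, so Il1r2 did not stand out from peaks as weak as its own. The peak began 633 bp past the start given in the lists and lay over the window that the RefSeq promoter table gives for Il1r2, but not over the RefSeq gene start at base 40084692. It was also listed for Gm16894, whose start lies 1.08 kb away, so the mark cannot be given to Il1r2 alone.

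Il1rl1, the receptor for IL-33, had a weak peak inside the gene and none at its starts. It ran from 3773 to 4772 bp past the start in sg-Ctrl and from 3973 to 5772 bp in KO, so that 0.227 kb and 0.027 kb of it lay within the 4 kb searched around the start. Reads numbered 99 (80.5 to 121) in sg-Ctrl and 124 (103 to 148) in KO, against 13 and 39 IgG reads. Scaled levels were 93.3 and 51.1 reads per kb, a log2 ratio of -0.87 (-1.26 to -0.47), or -0.37 relative to the median of all genes. Among the 500 genes nearest in level the median was 0.07, and 33 of them were lower than Il1rl1. Total scaled reads were nearly equal at 93.3 and 92.0, so the lower level per kb went with the wider peak. The deposited fold over IgG was 7.18 in sg-Ctrl and 2.36 in KO. Neither of its RefSeq windows lay under a peak.

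**Figure D2:**
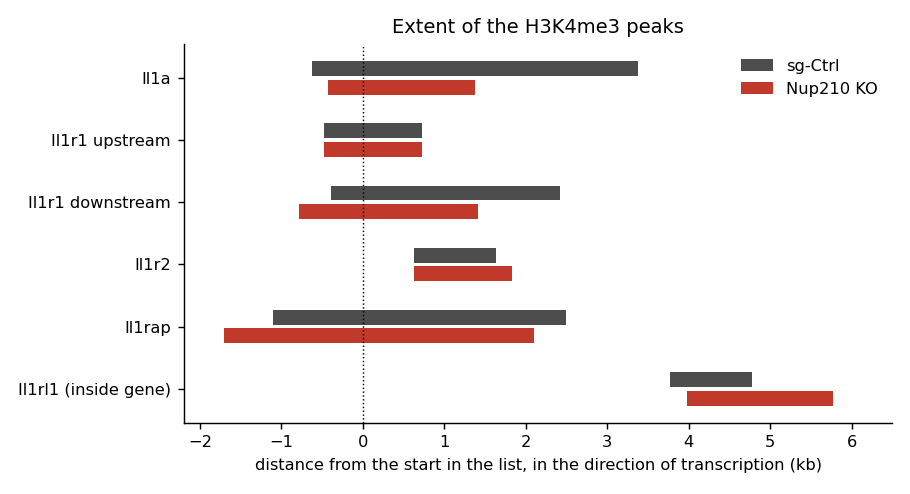
Extent of each H3K4me3 peak, as distance in kb from the start given in the lists in the direction of transcription, in sg-Ctrl (grey) and Nup210 KO (red). The Il1a peak shortens from 4.0 to 1.8 kb on its gene side, the Il1r1 upstream peak has the same edges in both, and the Il1rl1 peak lies inside the gene.

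By the 2-fold limit the study uses, 1 of the 5 genes, Il1a, was at least 2-fold lower in KO, as 9.66% of the 12197 genes were, and 0 were at least 2-fold higher, as 0.525% were. The 5 log2 ratios ran from -1.90 at Il1a to 0.02 at Il1r2, with a median of -0.13 beside -0.50 over all genes. Of the 5 genes, 2 lay below that all-gene median and 3 above it. With library sizes set instead from the peaks common to both lists, Il1a was at -1.48 and Il1rl1 at -0.45, while Il1rap was at 0.30, Il1r1 at 0.42 and Il1r2 at 0.44.

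**Figure D3:**
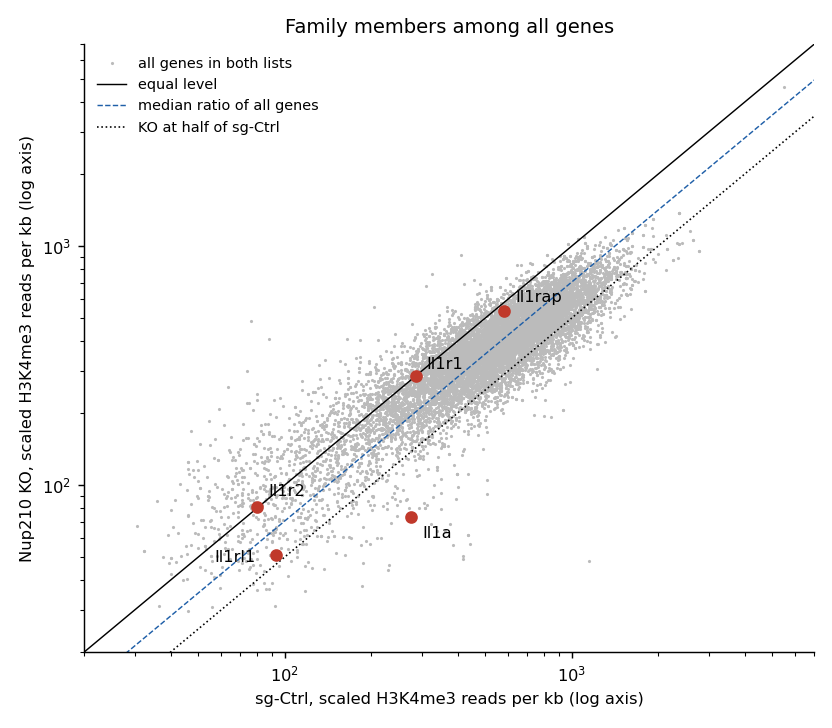
Scaled H3K4me3 reads per kb (both axes log) in sg-Ctrl and Nup210 KO for the 12197 genes with a peak in both lists (grey), with the 5 genes of the family in red and lines for equal level, the all-gene median ratio and a 2-fold lower level in KO. Il1a lies below the line for a 2-fold lower level, with 31 genes lower in ratio, and Il1r1, Il1r2 and Il1rap lie near the line of equal level.

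The genes around Il1a did not share its ratio. Within 500 kb, 13 other genes had H3K4me3 in both lists, with a median log2 ratio of -0.63 and a lowest value of -1.24. The nearest of them, Ckap2l and Gm14023, share 1 peak and lay 12.8 and 12.6 kb away at -0.92. Chromosome 2 as a whole had a median of -0.42. Il1b, 61.2 kb from Il1a, had no peak of its own in any list, and the H3K4me3 peak nearest to it was that of Il1a. On chromosome 1, Il1r2, Il1r1, Il1rl1 and Il18rap, each with H3K4me3 in both lists, lie in this order within 500 kb. They took different values, from 0.02 at Il1r2 to -1.26 at Il18rap (1807 reads in sg-Ctrl and 704 in KO). Il18rap is the accessory chain of the IL-18 receptor. Il1rl2 and Il18r1, other receptor genes on this stretch, had no H3K4me3 in either list. Slc9a2, the next gene past Il18rap with H3K4me3 in both lists, was higher in KO at 0.72 (95 and 397 reads).

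Genes most like Il1a were sought among 400 genes with the same listing in the other 4 lists, by the distance over the log2 level and log2 width in both H3K4me3 libraries. The nearest were Bspry, Il17d and Tsga14, at distances of 1.10, 1.17 and 1.43 log2 units. Their log2 ratios were -1.19, -0.93 and -0.71, all smaller losses than that of Il1a, and the peak of Bspry was 2.6 kb wide in sg-Ctrl and 3.0 kb in KO. Il1a was taken as the member with the lowest ratio and the distance includes the levels behind that ratio, so this order is a description only.

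H3K27me3 covered the whole of Il1rn, the receptor antagonist, in both conditions. In sg-Ctrl the island over it was 72 kb wide (chr2:24285001-24357000), with 1944 reads and a fold over IgG of 2.49, and in KO it was 125 kb wide (chr2:24241001-24366000), with 11140 reads and a fold of 2.45. The KO library was deeper, and the scaled levels were 31.9 and 33.3 reads per kb, for a log2 ratio of 0.06 (-0.01 to 0.13). The island was wider in KO, while the interval of its level included no change on this scale. That interval lay above the median log2 ratio of -0.16 over the 4940 pairs of islands that met only each other between the lists. The upper quartile of those pairs was 0.05, but the KO island over Il1rn met 2 sg-Ctrl islands and is not such a pair. Over those 2 together sg-Ctrl had 32.8 scaled reads per kb, against 33.3 in KO. The KO island took in 2 sg-Ctrl islands, the 72 kb one and one of 27 kb over Il1f5, the gene of the IL-36 receptor antagonist, and the 4 kb between them. It ran 13 kb farther on one side and 9 kb farther on the other, from 99 kb in sg-Ctrl to 125 kb. Of all 8874 KO islands, 11.6% held 2 or more sg-Ctrl islands. The deeper KO library moved with this, and its part in the joining was not tested.

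The neighbouring ligand genes carried the mark as well. Of 5 other ligand genes of the family on this stretch, 4 had H3K27me3 in sg-Ctrl (Il1f5, Il1f6, Il1f8 and Il1f10) and all 5 in KO, where Il1f9 had an island of 9 kb with 479 reads and a fold of 2.52. It stood at 19.9 scaled reads per kb. Of all 8874 KO islands, 2170 likewise met no sg-Ctrl island. The part of the deeper KO library in such islands was not tested, so the one at Il1f9 is no measure of a gain. None of these 5 ligand genes had H3K4me3 in either list. The island of Il1f6 had the same edges in both lists and 31.4 and 33.1 scaled reads per kb. No gene with H3K4me3 in both lists started within 500 kb of Il1rn.

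**Figure D4:**
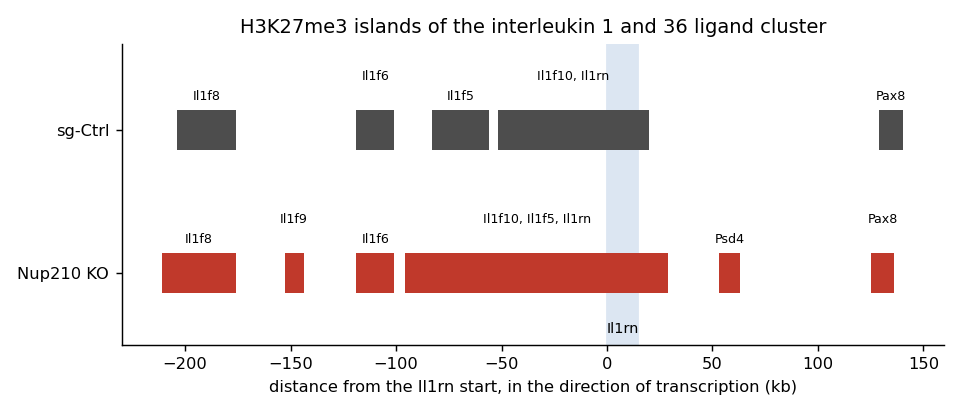
H3K27me3 islands listed around Il1rn in sg-Ctrl (grey) and Nup210 KO (red), as distance in kb from the Il1rn start in the direction of transcription, with the genes each was listed for and the Il1rn gene body shaded. A single KO island of 125 kb spans the sg-Ctrl islands of 27 and 72 kb. Il1f9 and Psd4 have an island in KO alone, and 2170 of all 8874 KO islands met none of sg-Ctrl.

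Il18, an IL-1-like ligand that is cut by caspase-1, carried H3K27me3 on 65.8% of the gene body given in the lists in sg-Ctrl and on 59.7% in KO. Its island had 261 reads (230 to 295) in sg-Ctrl, and KO gave 951 (892 to 1013), or 28.02 and 32.3 scaled reads per kb. The log2 ratio was 0.21 (0.01 to 0.41), beside a median of -0.16 over the 4940 islands that met 1 to 1 between the lists, and 87.5% of these were lower than Il18. A stronger island over the RefSeq start of Il18, listed for Bco2 and Tex12, went the other way per kb. It had 73.4 scaled reads per kb over 15 kb in sg-Ctrl (fold 3.51) and 46.0 over 21 kb in KO (fold 2.45). The gene as a whole thus had no single direction. Il33, an alarmin released from damaged cells, was listed in sg-Ctrl alone, with 250 reads against 255 IgG reads, a fold of 1.16 and an FDR of 0.011. That peak is weak beside the median fold of 2.57 in its list, and its absence from the KO list is no measure of a loss.

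NUP210 was listed on 2 of the 9 genes (22.2%), where 24.2% of protein-coding genes were, and NPC on 4 (44.4%), where 22% were. Il1rap had 4 NUP210 peaks that together covered 84.6% of its 143 kb body, but 3726 reads stood against 3450 IgG reads, a fold of 1.07. The strongest of the 4, at chr16:26614001-26655000, had a fold of 1.16 and an FDR of 3.2e-07, and the NPC list held a peak with the same edges at a fold of 1.06 and an FDR of 0.051. Il33 was listed with a fold of 0.697, below IgG. NPC peaks lay on Il1a, where 1 of 15 kb covered the whole gene (265 reads, 378 IgG reads, fold 1.16, FDR 0.020), and on Il1r1 (fold 1.18, FDR 0.0021), Il1rap and Il1rl1 (fold 0.983). These folds ran from 0.697 to 1.18, and long genes were listed more often: NUP210 was on 13.8% of genes under 20 kb and on 51.8% of those from 100 to 200 kb. At an FDR of at most 0.01, NUP210 was left on Il1rap alone and NPC on Il1r1 alone. Il1a had no listed NUP210 peak.

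Beyond the family, 82 genes of its pathway were followed in 5 lists, and 52 of them had H3K4me3 in both conditions. Of these 52, 13 (25%) were at least 2-fold lower in KO and 0 were at least 2-fold higher, beside 9.66% and 0.525% of all genes, and their median log2 ratio was -0.61 beside -0.50. Several target genes were picked out by the study from these cells, so their direction is not independent of its choice. These counts rest on scaling by library size: with the scaling from common peaks, 1 of the 13, Vcam1, was still 2-fold lower, as 1.25% of all genes were.

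The genes induced by IL-1 had the lowest median of the lists with over 2 genes, -0.78 over 18 of 28 genes. By library-size scaling 8 of the 18 (44.4%) were at least 2-fold lower, beside 9.66% of all genes. With the scaling from common peaks Vcam1 alone was. Vcam1, an adhesion molecule, fell most, from 332 to 100 scaled reads per kb (1409 and 162 reads, log2 -1.73, -1.97 to -1.49), and its peak shortened from 4.0 to 1.2 kb as that of Il1a did. By total scaled reads Vcam1 was at -3.47, lower than Il1a at -3.05. Csf3, the granulocyte growth factor G-CSF, was at -1.41 (6767 and 2997 reads), and the neutrophil chemokines Cxcl5 and Cxcl1 were at -1.39 and -1.38. Ptgs2, the cyclooxygenase of prostaglandin synthesis, was at -1.30 (14066 and 8111 reads), and Tnfaip3, a brake on NF-kB, was at -1.12 (13740 and 6950 reads). Mmp3 was also at -1.12, but on 144 and 84 reads against 31 and 38 IgG reads. Its interval, from -1.53 to -0.72, crossed the 2-fold limit. A further 4 target genes had H3K4me3 in sg-Ctrl alone, as 2.02% of the 12693 genes in either list did: Cxcl3 with 275 reads, Ptges with 409, Ccl2 with 119 and Csf2 with 44. Lif was at 0.12 per kb (3828 and 2131 reads), but at -1.19 by total scaled reads, since its peak shortened from 12.4 to 5.0 kb.

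Genes that carry the signal had a median close to that of all genes. The 23 of 26 signal transduction genes with H3K4me3 in both lists had a median of -0.44. Of these 23, 3 were at least 2-fold lower, as 9.66% of all genes were: Peli1, a ubiquitin ligase, at -1.15, Map2k4 at -1.08 and Tab2 at -1.01. With the scaling from common peaks, none of these 3 genes was still 2-fold lower. Myd88, the adaptor of the receptor, was at -0.74 and Irak1 and Rela were at -0.16 and -0.10. Irak3, an inhibitor of the pathway, was listed in sg-Ctrl alone with 51 reads, and Peli2 in KO alone with 102, as 1.89% of genes in either list were. Both were weak beside the median of 1864.5 reads in sg-Ctrl and 1886 in KO, so neither absence measures a change. The 9 inflammasome and processing genes measured had a median of -0.55, with Casp8 the lowest at -1.21 (5490 and 3971 reads), while Casp1 was higher in KO at 0.73 (0.22 to 1.27) on 43 and 121 reads. Of the other receptors, Il18rap was at -1.26 and Sigirr, an inhibitory receptor, at -0.69.

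**Figure D5:**
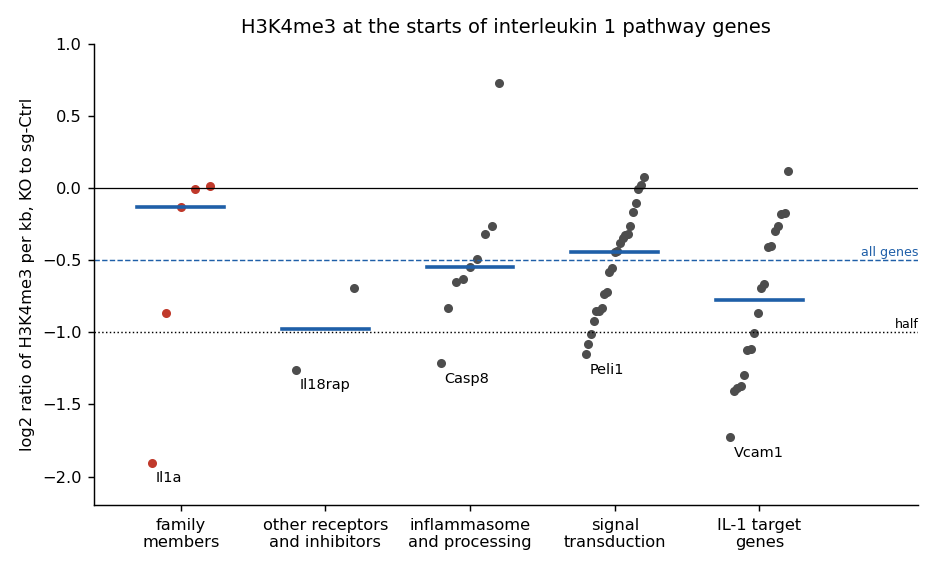
Log2 ratio of scaled H3K4me3 reads per kb, KO to sg-Ctrl, for each gene with a peak in both lists (points), with the median of each list (bars), the all-gene median (dashed) and a 2-fold lower level (dotted). Per kb, Il1a at -1.90 lies below every gene of the pathway lists, of which Vcam1 at -1.73 is the lowest. By total scaled reads, not shown, Vcam1 is lower than Il1a.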

How the data were processed

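ChIP-seq of 4T1 cells was used in 6 peak lists, with 1 library per condition. SICER peak calls against IgG were made by the authors in windows of 200 bp (H3K4me3) or 1000 bp (H3K27me3, NUP210, NPC). Per the submitters' processing notes, Trimmomatic, Bowtie2 and Picard are among the tools named. RNA-seq (4 samples) was not used here, and the 3 IgG samples entered only through the lists. Each deposited peak has raw counts of its ChIP reads and IgG reads. The authors also deposited the peak's p-value, an FDR, and a fold over IgG, a ratio that takes library size into account. The lists also hold gene and peak positions as deposited, in other columns.

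Peaks were matched to members by gene symbol, and repeated entries were collapsed. The relative library size was recovered from counts and folds (1.06 and 1.35 for H3K4me3 in sg-Ctrl and KO, 0.847 and 2.68 for H3K27me3, 1.01 for NUP210, 0.606 for NPC). Where sg-Ctrl and KO peaks had identical edges (832 for H3K27me3, 575 for H3K4me3), their IgG reads were identical too, so each mark is on 1 scale. Total depth beyond these is unknown. A gene with several H3K4me3 peaks was given by its densest one. Intervals are 95% exact Poisson for reads and exact conditional binomial for ratios, and cover counting error only. The ratio and its interval were tested on simulated Poisson counts with the same peak width in both conditions. Such a test does not cover peaks whose edges differ, as at Il1a, or variation between libraries. Positions follow GRCm38: between 87.5% and 89.2% of gene starts or ends lay within 50 bp of RefSeq GRCm38.p6, whose promoter table gave the sequences.

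The members, gene lists and limits were chosen with earlier results of these data known. Named are all members, pathway genes at least 2-fold lower or higher (up to 10 in each direction), those in 1 H3K4me3 list alone, up to 3 neighbours a side and the 3 genes most like Il1a. Map2k4, Tab2, Lif, Casp1, Myd88, Irak1, Rela and Sigirr were named after their values were seen. Alternatives were the scaling, the measure, the peak chosen, FDR and fold limits and window sizes. Where a list held 2 symbols of 1 gene, it was counted once. Scripts ran in Python 3.11.15 with scipy 1.17.1, pandas 2.3.3, matplotlib 3.10.9 and numpy 2.4.6.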

Additional observations from a re-analysis of the deposited data

Results flagged for a closer look

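A signal outside the members' own listing lay at Il18. Its RefSeq start (chr9, base 50554700) is 10.7 kb upstream of the start in the lists (50565368) and lies inside an H3K4me3 peak that the lists give to Bco2. That peak was flagged because no comparison of sg-Ctrl with KO above uses it and it stood well above the IgG control, with a fold over IgG of 45.9 in sg-Ctrl and 8.10 in KO. It held 341 reads (306 to 379) in sg-Ctrl and 131 (110 to 155) in KO, which scaled to 230 and 44.2 per kb. The log2 ratio was -2.38 (-2.68 to -2.08), with 11 of 12197 genes lower. An H3K27me3 peak given to Bco2 and Tex12 covers the same start, with 73.4 scaled reads per kb over 15 kb in sg-Ctrl and 46.0 over 21 kb in KO. Weak NUP210 and NPC peaks given to the same genes cover it too, with a fold of 1.39 and an FDR of 2.5e-07 for NUP210 and a fold of 1.11 and an FDR of 0.070 for NPC. Whether the H3K4me3 belongs to Il18 or to Bco2 was not tested.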

How the results depend on the processing

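The deposited fold over IgG turned the direction at Il1a, to a log2 ratio of 0.088, and the KO peak there rests on 6 IgG reads. The other 8 alternatives left Il1a between -3.05 and -1.40. The median of the 5 members (-0.13) became 0.30 with scaling by shared peaks, 0.37 relative to the all-gene median and 0.088 with the deposited fold. The 1 member at least 2-fold lower became 2 after IgG subtraction, with Il1rl1 added at -1.45, and was Il1rl1 in place of Il1a with the deposited fold. The 13 pathway genes at least 2-fold lower became 1 with shared-peak scaling and 1 relative to the all-gene median, a setting chosen after seeing the data. Members listed for NUP210 went from 2 to 1 at an FDR of at most 0.05 or 0.01 and to 0 at a fold of at least 2, and their peaks from 5 to 2, 1 and 0. Members listed for NPC went from 4 to 1 at an FDR of at most 0.01 and to 0 at a fold of at least 2, and their peaks from 6 to 3 at an FDR of at most 0.05, to 1 at 0.01 and to 0 at that fold. With the peak nearest the start, or with the upstream start alone, a setting chosen after seeing the data, Il1r1 was at 0.39. Listing for both histone marks kept within 1.5 times under each limit. No paired analysis was possible because each condition has 1 library and the samples with replicate numbers were not analysed here. With 1 clone and 1 library per condition, differences between cultures were not measured.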
